A study of Mus musculus with 2 samples.

Results

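The 8 genes described here encode the structural proteins of the synaptonemal complex: Sycp2 and Sycp3 of the lateral elements, Sycp1 of the transverse filaments, and Syce1, Syce2, Syce3, Tex12 and 4930447C04Rik of the central element. They were chosen by symbol, with earlier results of these data known, and all 8 are among the 31053 genes of the deposited matrices. The contrast of Syce2 with Syce3 was set after their opposite ratios had been seen in these data. The product of 4930447C04Rik is known as SIX6OS1.

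The synaptonemal complex is the zipper-like protein structure that joins homologous chromosomes along their length during meiotic prophase. Lateral elements form on each chromosome axis in leptotene, SYCP1 filaments bridge the axes with their N termini meeting in the middle, and the central element proteins hold those filaments together and let synapsis spread. In the mouse testis the complex is complete in pachytene and is taken apart in diplotene, and male mice that lack any of these proteins are known to be infertile.

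Transcripts were counted cell by cell in droplets, in 1 Zfp541-/- library and 1 WT library made from the testes of adult C57BL/6 mice. Zfp541 encodes a zinc finger protein that spermatocytes make, and the sources used here give neither the deleted part of the gene nor the number of animals in a library. Per the labels, testis cells were dispersed with enzymes and sorted by flow cytometry for tetraploid germ cells, although the sample titles speak of whole testis. Annotated cells numbered 8833 in the library labelled Zfp541-/-, with 119675250 unique molecular identifiers (UMIs), and 8420 in the WT library, with 108612781 UMIs.

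The authors' stage names run through 3 stages of differentiated spermatogonia (Diff.Spg1 to Diff.Spg3), preleptotene (pre.L), leptotene (L), zygotene (Z), early, mid and late pachytene (eP, mP, lP), diplotene (D), meiosis I (MI), round spermatids in 3 steps (RS.1 to RS.3) and elongated spermatids (ES). For each gene the UMIs of all cells of a stage were added up and expressed per 1000000 UMIs of that stage (CPM). The level of a stage is thus set against all RNA of that stage, and a 3' count is not divided by transcript length, so levels are compared between libraries and stages and not between genes. With 1 library per genotype there is no replicate check and no test. Each interval is a 95% interval of counting error and covers neither the spread between mice nor that between preparations. A difference of at least 2-fold is used only as a size, and it was read among genes that reached 10 CPM in 1 or both libraries, as all 8 genes did in each comparison.

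Libraries were compared where each had at least 50 cells. Mid pachytene held 2501 cells in the library labelled Zfp541-/- and 1207 in the WT library, and late pachytene held 1945 and 827. Early pachytene is given by its clusters, because the 10 leading genes of clusters 12 and of 16 include the spermatogonial marker Sohlh2 and no pachytene marker. Sohlh2 is 1 of 8 listed spermatogonial markers, of which 7 in cluster 12 and 6 in cluster 16 were at 0 in the shallower WT sums. All 8 pachytene markers were found in both clusters in each library, so Sohlh2 alone does not name these cells. Cluster 12 held 713 cells of the library labelled Zfp541-/- and 75 WT cells, and cluster 16 held 451 and 155. No listed marker of any stage was among the 10 leading genes of the mid and late pachytene clusters. The 8 pachytene markers summed to 10328 CPM in mid pachytene cells of the library labelled Zfp541-/- and 10739 CPM in WT cells, and 11942 and 11983 CPM in late pachytene. The median cell of mid pachytene had 18665 UMIs in the library labelled Zfp541-/- and 7945 in WT, and that of late pachytene 23690 and 9210. The median percent of mitochondrial UMIs was higher in the library labelled Zfp541-/- in each group compared, at 3.08 against 1.48% in WT in mid pachytene, 2.22 against 1.26% in late pachytene, 4.33 against 2.48% in cluster 12 and 4.12 against 2.10% in cluster 16, and its part in the results was not tested.

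Zfp541 itself does not check the genotype label. Its level was 81.9 CPM in mid pachytene of the library labelled Zfp541-/- and 28.1 CPM in WT, and 70.6 and 35.8 CPM in late pachytene. A 3' tag outside the deleted part checks nothing, so each direction below is between the libraries as labelled. Among all deposited barcodes 42 occur in both libraries, 17 of them among the annotated cells, and the log2 ratios without those cells differed from the ones given here by less than their counting error.

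RefSeq promoter windows (GRCm38.p6, 250 bases before to 50 bases after a start site) were found for all 8 genes, 10 windows in all. Those of Syce2 and Syce3 are shown because the levels of these genes differed in opposite directions between the libraries, and those of Tex12 and 4930447C04Rik because both were higher in the library labelled Zfp541-/-. For Syce2 and Syce3, which have 2 windows each, the one with more CpG pairs is printed. The windows are Syce2 at chr8:84872008-84872307 on the plus strand, Syce3 at chr15:89410214-89410513, Tex12 at chr9:50561219-50561518 and 4930447C04Rik at chr12:72917716-72918015, the last 3 on the minus strand. Capitals mark matches to any of 6 motifs searched on both strands.
Syce2: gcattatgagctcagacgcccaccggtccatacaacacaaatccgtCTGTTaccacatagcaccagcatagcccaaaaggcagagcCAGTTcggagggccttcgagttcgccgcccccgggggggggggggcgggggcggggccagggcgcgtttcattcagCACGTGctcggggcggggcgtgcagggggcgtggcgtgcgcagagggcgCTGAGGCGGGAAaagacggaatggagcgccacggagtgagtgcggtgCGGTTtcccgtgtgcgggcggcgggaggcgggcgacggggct
Syce3: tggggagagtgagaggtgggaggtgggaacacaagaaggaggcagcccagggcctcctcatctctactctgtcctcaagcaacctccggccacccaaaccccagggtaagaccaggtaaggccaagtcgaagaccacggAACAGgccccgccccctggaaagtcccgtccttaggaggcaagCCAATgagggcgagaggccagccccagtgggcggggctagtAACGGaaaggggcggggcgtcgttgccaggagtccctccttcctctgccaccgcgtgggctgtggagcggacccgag
Tex12: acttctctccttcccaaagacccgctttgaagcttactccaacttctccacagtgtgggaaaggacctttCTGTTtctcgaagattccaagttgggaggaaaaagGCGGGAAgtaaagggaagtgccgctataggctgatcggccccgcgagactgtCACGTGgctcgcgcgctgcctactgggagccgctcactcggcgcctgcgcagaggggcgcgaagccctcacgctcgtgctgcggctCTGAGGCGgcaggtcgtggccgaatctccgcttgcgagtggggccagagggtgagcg
4930447C04Rik: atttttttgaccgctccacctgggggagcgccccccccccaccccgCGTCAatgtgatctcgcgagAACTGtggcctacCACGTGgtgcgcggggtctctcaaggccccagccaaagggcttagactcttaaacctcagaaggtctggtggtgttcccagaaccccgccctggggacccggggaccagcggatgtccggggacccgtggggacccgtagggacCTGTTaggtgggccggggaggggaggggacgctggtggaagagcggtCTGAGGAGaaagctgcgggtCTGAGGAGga
The motifs were the MYB core AACNG, found in 80.3% of the 32851 RefSeq windows of mouse genes, the CRE core TGACG (20.8%), the E-box CACGTG (7.15%), the STRA8 motif CNCCTCAG (7.94%), the E2F core TTCCCGC (4.60%) and the CCAAT box (37.4%). The printed Syce2 window held the E-box at position -88, counted to the first base of the match with the start site as 0, the STRA8 motif at -39 and the E2F core at -34, and the last 2 overlap in the run CTGAGGCGGGAA. The Tex12 window held the same 3 motifs, at -93, -7 and -145. The 4930447C04Rik window held the E-box at -171, the STRA8 motif at 20 and again at 40, and a CRE core at -204. The printed Syce3 window held none of these 4 and had the MYB core at -111 and -27 and the CCAAT box at -68. The windows not printed differ from these. That of Syce2 held no E-box, STRA8 motif or E2F core and had a CRE core at -165, and that of Syce3 had a CRE core at -221. The start sites of the printed Syce2 and Syce3 windows lie 147 and 240 bases from the GENCODE start site, and those of the windows not printed lie at it. Among the other genes, the E-box was also in the windows of Sycp3 and Sycp1 and not in those of Sycp2 and Syce1. A match is a run of letters and was not tested as a binding site.

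The lateral elements are described first. Their transcripts stood at nearly the same level in both libraries (Sycp2) or at a moderately higher level in the library labelled Zfp541-/- (Sycp3). Sycp2 (ENSMUSG00000060445, chr2:178345293-178407685, minus strand, GRCm38) encodes a large axis protein to which SYCP3 binds. In mid pachytene its level was 485 CPM in the library labelled Zfp541-/- and 509 CPM in the WT library, a log2 ratio of -0.07 (-0.12 to -0.03). In late pachytene it was 406 CPM in the library labelled Zfp541-/- and 413 CPM in WT, a log2 ratio of -0.03 whose interval, -0.08 to 0.03, includes 0. In the early pachytene clusters the ratio was above 0, with 830 CPM in the library labelled Zfp541-/- and 710 CPM in WT in cluster 12 (log2 ratio 0.22, 0.03 to 0.43) and 701 and 556 CPM in cluster 16 (0.33, 0.17 to 0.50). Scaled by the median of gene ratios, these 2 ratios were 0.09 (-0.11 to 0.30) and 0.02 (-0.14 to 0.19), both with intervals that include 0. Over the 7 mid and late pachytene clusters the log2 ratio of Sycp2 lay between -0.33 and 0.28, with the interval below 0 in 4 clusters, above 0 in 1 and including 0 in 2.

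Sycp3 (ENSMUSG00000020059, chr10:88459569-88473236, plus strand) encodes the protein that forms the fibres of the axis and is the usual stain for meiotic chromosome cores. Its level was 1026 CPM in mid pachytene cells of the library labelled Zfp541-/- and 788 CPM in WT cells (log2 ratio 0.38, 0.35 to 0.41), and 801 and 526 CPM in late pachytene (0.61, 0.56 to 0.65). All 7 mid and late pachytene clusters had the higher level in the library labelled Zfp541-/-, with log2 ratios from 0.19 to 0.77. In the early clusters the CPM levels did not differ beyond counting error, the log2 ratio being 0.03 (-0.07 to 0.14) in cluster 12 and 0.09 (-0.00059 to 0.18) in cluster 16. Scaled by the median of gene ratios, both turn negative. The ratio was then -0.10 (-0.20 to 0.007) in cluster 12 and -0.22 (-0.31 to -0.13) in cluster 16, where the interval leaves out 0. Chpt1, which overlaps Sycp3 on the opposite strand, was lower where Sycp3 was higher, at 22.8 CPM in mid pachytene of the library labelled Zfp541-/- and 99.1 CPM in WT, and the sources used here do not say whether the counting used strand.

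The transverse filament gene gave no common direction. Sycp1 (ENSMUSG00000027855, chr3:102818499-102936100, minus strand) encodes the coiled-coil protein whose filaments span the gap between the axes. In mid pachytene its level was 439 CPM in the library labelled Zfp541-/- and 486 CPM in WT (log2 ratio -0.15, -0.19 to -0.10), whereas in late pachytene it was 264 and 229 CPM (0.21, 0.14 to 0.28). Within the 7 clusters of these stages the log2 ratio lay between -0.41 and 0.41, with the interval above 0 in clusters 2 and 22, below 0 in clusters 4 and 11 and including 0 in the other 3. In early pachytene it was 1734 CPM in the library labelled Zfp541-/- and 1431 CPM in WT in cluster 12 (0.28, 0.14 to 0.42) and 1615 and 1250 CPM in cluster 16 (0.37, 0.26 to 0.48). Scaled by the median of gene ratios, the ratio in cluster 16 was 0.06 (-0.05 to 0.17), which includes 0. A processed copy, Sycp1-ps1, is annotated on chromosome 7, and reads could be shared with it.

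**Figure D1:**
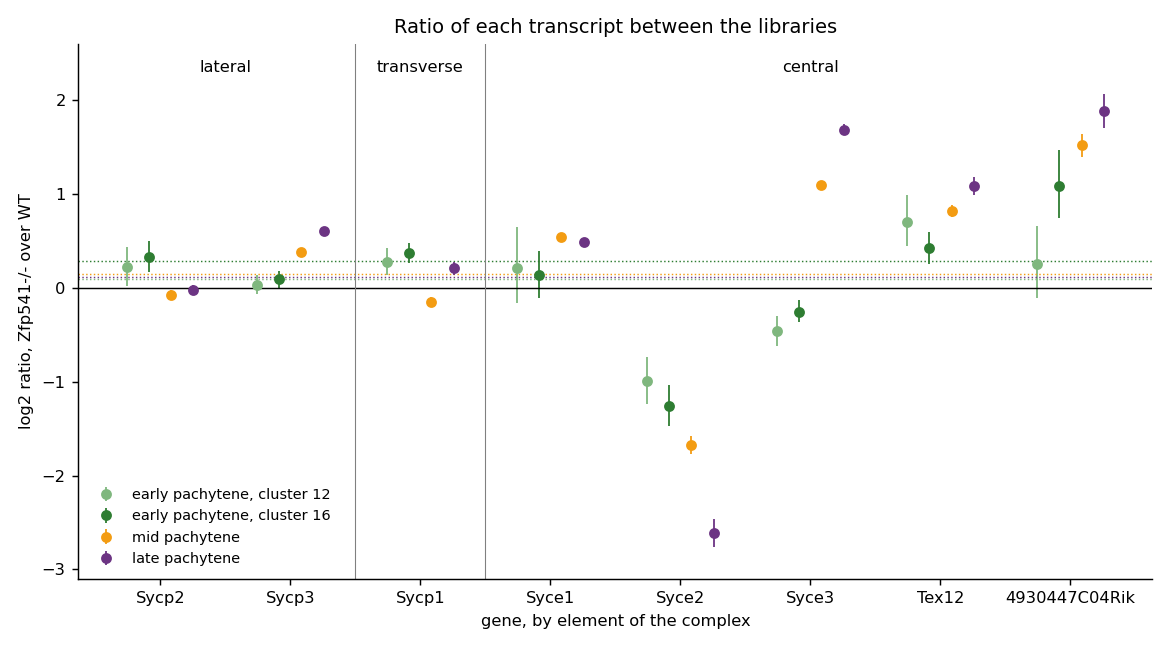
Log2 ratio, Zfp541-/- library over WT library (vertical axis), for each of the 8 genes, ordered by element, in early pachytene clusters 12 and 16, mid pachytene and late pachytene; bars are 95% intervals of counting error and dotted lines the median over all genes in the same comparison. Syce2 lies at -0.995, -1.26, -1.67 and -2.62, while Syce3 lies at -0.46 and -0.25 in the early clusters and at 1.10 and 1.69 in mid and late pachytene.

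The 5 central element genes held the differences of at least 2-fold, in both directions. Syce2 (ENSMUSG00000003824, chr8:84872111-84888221, plus strand) encodes a protein that binds TEX12 and with it forms the long fibres of the central element along which synapsis is extended. Its level was 45.7 CPM in mid pachytene cells of the library labelled Zfp541-/- and 145.7 CPM in WT cells, a log2 ratio of -1.67 (-1.77 to -1.57). In late pachytene it was 15.4 CPM in the library labelled Zfp541-/-, against 94.1 CPM in WT, a 6.13-fold lower level with a log2 ratio of -2.62 (-2.76 to -2.47). Syce2 was already lower in early pachytene, at 248 CPM in the library labelled Zfp541-/- and 493 CPM in WT in cluster 12, with 172 CPM and 411 CPM in cluster 16. Its log2 ratio was thus farther from 0 in each later stage, from -0.995 (-1.24 to -0.73) in cluster 12 and -1.26 (-1.47 to -1.04) in cluster 16 to -2.62 in late pachytene. Gcdh, which overlaps Syce2 on the opposite strand, was below 0.5 CPM in both libraries in mid and late pachytene.

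Syce3 (ENSMUSG00000078938, chr15:89390174-89410503, minus strand) encodes a small protein that binds SYCP1 and SYCE1 and is needed to start the central element. It was lower in the library labelled Zfp541-/- in early pachytene and higher in mid and late pachytene. In cluster 12 its level was 855 CPM in the library labelled Zfp541-/- and 1176 CPM in WT (log2 ratio -0.46, -0.62 to -0.30), and in cluster 16 it was 987 and 1175 CPM (-0.25, -0.37 to -0.13). Its mid pachytene level was 1105 CPM in the library labelled Zfp541-/- and 515 CPM in WT (1.10, 1.06 to 1.14). Its late pachytene level was 927 CPM in the library labelled Zfp541-/- and 288 CPM in WT (1.69, 1.63 to 1.75). The WT level in mid pachytene was 0.438 times that in WT early pachytene, while in the library labelled Zfp541-/- the mid pachytene level was 1.21 times the early one.

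The opposite ratios of Syce2 and Syce3 were present in each cluster of mid and late pachytene. This contrast was chosen because it had been seen in these data, and the clusters are parts of the same libraries and not replicates. The values below therefore describe it and are no separate support. In mid pachytene cluster 4, where both ratios were closest to 0, Syce2 was at 79.0 CPM in the library labelled Zfp541-/- and 210.0 CPM in WT (log2 ratio -1.41, -1.59 to -1.23) and Syce3 at 1129 and 818 CPM (0.47, 0.39 to 0.54). In late pachytene cluster 5, Syce2 was at 14.0 and 90.3 CPM (-2.70, -3.03 to -2.34) and Syce3 at 902 and 288 CPM (1.65, 1.48 to 1.82). The difference between the log2 ratios of Syce3 and Syce2 does not depend on how the libraries are scaled. It was 2.77 in mid pachytene (2.67 to 2.88, Wald interval of counting error) and 4.30 in late pachytene (4.14 to 4.46), and ranged over the 7 clusters from 1.88 in cluster 4 to 4.34 in cluster 5. Put as UMIs, 24.2 Syce3 UMIs were counted per Syce2 UMI in mid pachytene of the library labelled Zfp541-/- and 3.54 in WT, and 60.4 against 3.06 in late pachytene. In early pachytene the difference was smaller, 0.53 (0.24 to 0.83) in cluster 12 and 1.00 (0.76 to 1.24) in cluster 16.

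**Figure D2:**
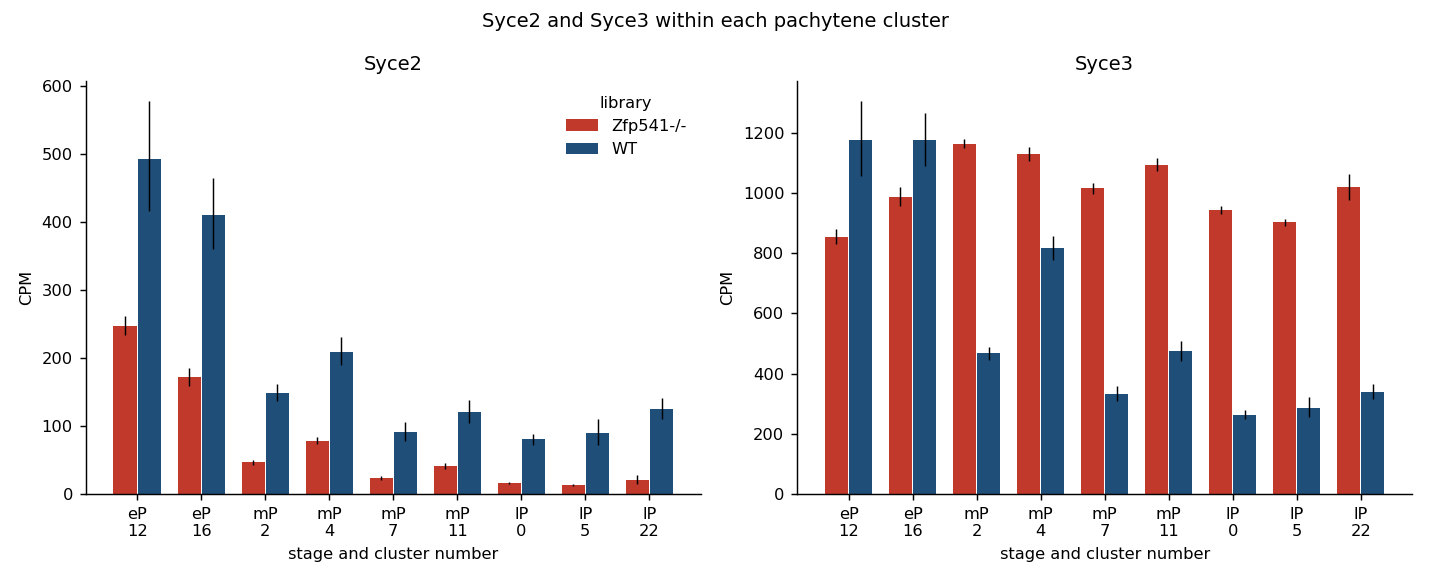
Levels (CPM, vertical axis, from 0) of Syce2 and Syce3 in the early (eP), mid (mP) and late (lP) pachytene clusters, named by their deposited numbers; bars are the library labelled Zfp541-/- (left of each pair) and the WT library (right), with exact Poisson intervals. Syce2 is lower in the library labelled Zfp541-/- in all 9 clusters, and Syce3 is lower there in clusters 12 and 16 and higher in the other 7.

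The shares of cells with at least 1 UMI were read beside the depth, since cells of the library labelled Zfp541-/- were deeper. A Syce2 UMI was found in 27.0% (25.0 to 29.0%, Clopper-Pearson) of late pachytene cells of the library labelled Zfp541-/- and in 56.7% (53.3 to 60.1%) of WT cells, although the WT cells were shallower. With each cell thinned to 3000 UMIs the Syce2 shares were 4.27% (3.41 to 5.27%) and 23.0% (20.2 to 26.1%). In mid pachytene the thinned Syce2 shares were 12.9% in the library labelled Zfp541-/- and 36.3% in WT, and 49.7% and 67.0% at full depth. For Syce3 the late pachytene shares were 100% and 92.5% at full depth and 92.8% and 56.2% after thinning. No cell type in these libraries was free of Syce2 or Syce3 transcripts, and WT elongated spermatids, which are past meiosis, had a UMI of Syce2 in 95.5% and of Syce3 in 68.5% of cells, with a median of 6480 UMIs.

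Free RNA was therefore estimated from tracer genes in place of a cell type that lacks Syce2. Each estimate covers only the source cells named with it. Free RNA from other cells, such as early pachytene cells of the same library, was not traced. Were all protamine and transition protein UMIs of WT late pachytene cells carried over from the last round and elongated spermatids, Syce2 from that source would come to 0.979 CPM, 1.04% of its WT level. Were all Stra8 UMIs of late pachytene cells of the library labelled Zfp541-/- carried over from cells before pachytene, Syce2 from them would come to 1.49 CPM, 9.68% of its level there, and Syce3 to 0.193% of its level.

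Of the other central element genes, Syce1 (ENSMUSG00000025480, chr7:140777229-140787852, minus strand) encodes a protein that binds SYCE3 and SIX6OS1. Its level was 631 CPM in mid pachytene of the library labelled Zfp541-/- and 434 CPM in WT (log2 ratio 0.54, 0.49 to 0.59), and 706 and 503 CPM in late pachytene (0.49, 0.44 to 0.54). Its ratio varied least over the 7 mid and late pachytene clusters, from 0.51 to 0.64. In clusters 12 and 16 the intervals included 0, and with other processing the log2 ratio went down to -0.04 and -0.18.

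Tex12 (ENSMUSG00000032065, chr9:50556819-50561325, minus strand) encodes the partner of SYCE2 in the central element fibres. In contrast to Syce2 it was higher in the library labelled Zfp541-/-, at 446 CPM against 253 CPM in WT mid pachytene (log2 ratio 0.82, 0.76 to 0.88) and at 257 against 121 CPM in WT late pachytene (1.09, 0.99 to 1.18). In early pachytene it was also higher, by a log2 ratio of 0.70 (0.44 to 0.99) in cluster 12 and of 0.42 (0.25 to 0.60) in cluster 16, the second of which was 0.11 (-0.06 to 0.28) when scaled by the median of gene ratios. Il18, on the opposite strand of Tex12, stayed below 1 CPM in both libraries.

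4930447C04Rik (ENSMUSG00000021098, chr12:72881109-72940774, minus strand) encodes SIX6OS1, a central element protein that binds SYCE1. It was at 171 CPM in mid pachytene of the library labelled Zfp541-/- and 59.7 CPM in WT (log2 ratio 1.52, 1.40 to 1.64), and at 120.0 and 32.5 CPM in late pachytene (1.88, 1.71 to 2.07). In cluster 16 it was at 245 and 115 CPM (1.08, 0.74 to 1.47), and in cluster 12 the interval, -0.11 to 0.66, included 0. After thinning, 29.4% of late pachytene cells of the library labelled Zfp541-/- and 8.24% of WT cells held a UMI, against 88.9% and 26.1% at full depth. WT elongated spermatids, in which the gene was at 2.35 CPM, held a UMI in 1.80% of cells at full depth and in 0.909% after thinning. The library labelled Zfp541-/- has no such cells, so these shares stand beside the WT shares only. Were all Stra8 UMIs in its late pachytene cells carried over from cells before pachytene, 4930447C04Rik from them would come to 1.11 CPM, 0.926% of its level.

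Counted over the 8 genes, 2 were at least 2-fold higher in mid pachytene of the library labelled Zfp541-/- (Syce3 and 4930447C04Rik), where 15.0% of 7701 genes were, and 1 was at least 2-fold lower (Syce2), where 10.6% were. In late pachytene 3 were higher (Tex12 as well), where 17.4% of 7635 genes were, and 1 was lower, where 14.3% were. In cluster 12 none was past 2-fold in either direction, with Syce2 just inside at -0.995, where 14.4% and 8.77% of genes were higher and lower, and in cluster 16 1 was higher (4930447C04Rik) and 1 lower (Syce2), where 20.4% and 8.70% were. With 8 genes, counts this small say nothing about the genes as a set. The median log2 ratio of the 8 genes was 0.46 in mid and 0.55 in late pachytene, beside 0.15 and 0.11 over all genes, and 0.22 and 0.23 in clusters 12 and 16, beside 0.10 and 0.28. Scaling by the median of gene ratios would shift each log2 ratio by -0.15 in mid pachytene, -0.11 in late pachytene, -0.14 in cluster 12 and -0.31 in cluster 16, which would change 4 of the 2-fold counts. It would bring Syce3 in mid pachytene to 0.95, Tex12 in late pachytene to 0.98 and 4930447C04Rik in cluster 16 to 0.77, all under 2-fold, and Syce2 in cluster 12 to -1.13, past 2-fold.

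Summed by element, the central element had the largest log2 ratio in mid and late pachytene. A sum follows the genes with the most UMIs, and the central one includes Syce2, which went the other way. The central element genes together were at 2400 CPM in mid pachytene of the library labelled Zfp541-/- and 1408 CPM in WT (log2 ratio 0.77, 0.74 to 0.80), and at 2026 and 1039 CPM in late pachytene (0.96, 0.93 to 1.00). The lateral genes were at 1510 and 1297 CPM in mid pachytene (0.22) and at 1207 and 939 CPM in late pachytene (0.36). Without Syce3, which gave the most UMIs of the central genes in the library labelled Zfp541-/-, the central log2 ratio was 0.54 in mid and 0.55 in late pachytene. The lateral gene Sycp3 alone was at 0.38 and 0.61, and without Sycp3 the lateral ratio was that of Sycp2. Of the summed UMIs of the 8 genes, central element genes gave 55.2% in mid pachytene of the library labelled Zfp541-/- and 44.1% in WT, and 57.9% and 47.1% in late pachytene. In early pachytene the order was the other way, with 29.6% in the library labelled Zfp541-/- and 34.0% in WT in cluster 12, and 35.9% and 40.5% in cluster 16.

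**Figure D3:**
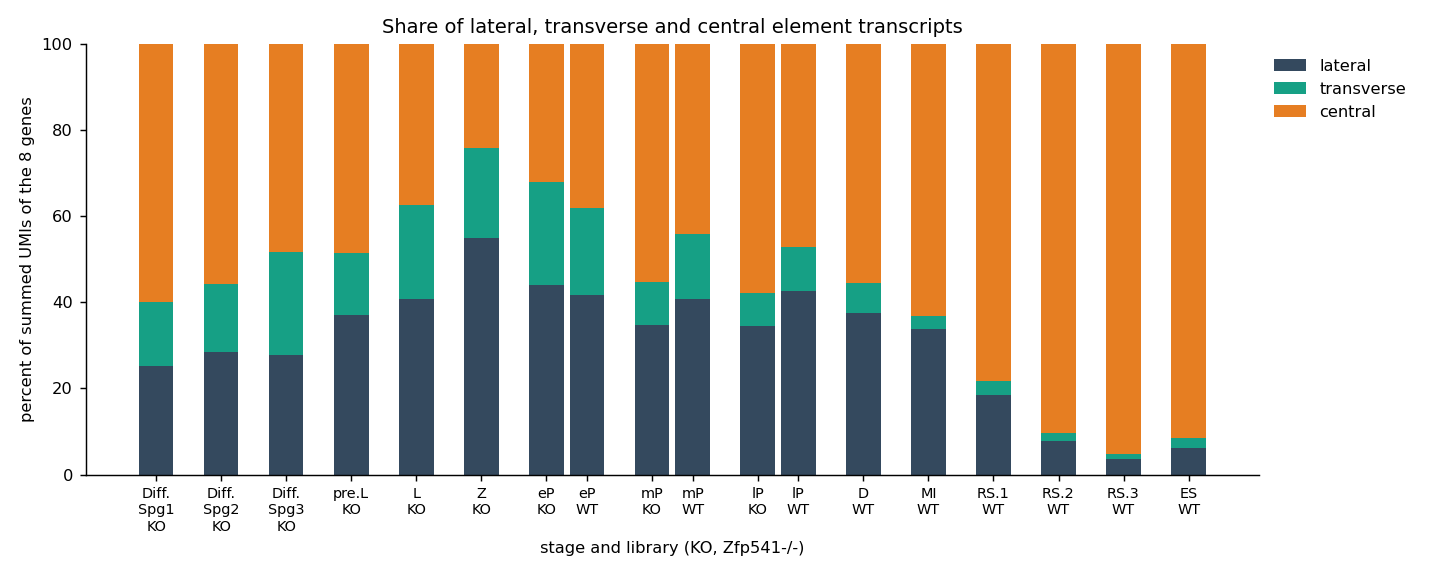
Percent of the summed UMIs of the 8 genes that came from lateral, transverse and central element genes, for each stage and library with at least 50 cells (KO is the library labelled Zfp541-/-). The central share is 55.2% in mid pachytene of the library labelled Zfp541-/- and 44.1% in WT, lowest in zygotene, and 95.2% in the last round spermatids of the WT library.

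Along the stages the genes followed different courses. Stage names are the authors'. The 10 leading genes of the preleptotene cluster held Stra8, placed here in the spermatogonial list, and no gene of the preleptotene list. Those of the second round spermatid cluster held Spag6, placed here in the pachytene list, and no gene of the round spermatid list. The lists are short and were set for this report, so these hits do not decide the stage of a cluster. The library labelled Zfp541-/- has cells enough from the first spermatogonia to late pachytene. In it all 8 genes were at a higher level in the cells named preleptotene than in the last spermatogonial stage. The levels were, for instance, 1264 against 339 CPM for Syce2, 938 against 188 CPM for Syce3 and 2513 against 449 CPM for Sycp3. The share of all genes with a higher level in preleptotene was not computed, so the count is not a trait of these genes. Syce2 and Tex12 were highest in preleptotene, at 1264 and 864 CPM. Sycp2 (1227 CPM), Sycp1 (2374 CPM), Syce3 (1457 CPM) and 4930447C04Rik (1031 CPM) were highest in leptotene, and Sycp3 in zygotene, at 4267 CPM. Syce1 departed from the others, with a first high of 474 CPM in preleptotene, 146 CPM in zygotene and its highest level, 706 CPM, in late pachytene. Syce2 had the widest course, 82.3-fold between preleptotene and late pachytene, with 237 CPM in zygotene and 215 CPM in early pachytene.

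The WT library had only 8 to 39 cells in each stage before pachytene, so these stages are given as sums without a ratio. In WT preleptotene 31 UMIs of Syce2 gave 1227 CPM (834 to 1742) and 23 UMIs of Syce3 gave 911 CPM (577 to 1366), intervals that hold the levels of 1264 and 938 CPM of the library labelled Zfp541-/-. In zygotene the levels of the library labelled Zfp541-/- were 237 CPM for Syce2 and 1000.2 CPM for Syce3, beside WT intervals of 257 to 585 CPM for Syce2 (25 UMIs) and 1348 to 1999 CPM for Syce3 (104 UMIs). The Syce3 interval of the library labelled Zfp541-/-, 961 to 1040 CPM, lay below the WT one, and its Syce2 interval, 218 to 257 CPM, met the lower end of the WT one. Sycp3 in zygotene was at 4267 CPM in the library labelled Zfp541-/- and 4346 CPM (3847 to 4892) in WT. Differences in Syce2 and Syce3 were thus not detectable at the depth of WT preleptotene, and in zygotene both genes had the lower level in the library labelled Zfp541-/-. Other genes also differed. In preleptotene Sycp2 and Sycp3 were at 683 and 2513 CPM in that library, above the WT intervals of 111 to 571 and 1232 to 2293 CPM. In leptotene Sycp2 was at 1227 CPM there (WT interval 371 to 1054), Sycp1 at 2374 (888 to 1832) and 4930447C04Rik at 1031 (223 to 798). Syce1 was at 205 CPM there in leptotene, below the WT interval of 223 to 798 CPM.

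**Figure D4:**
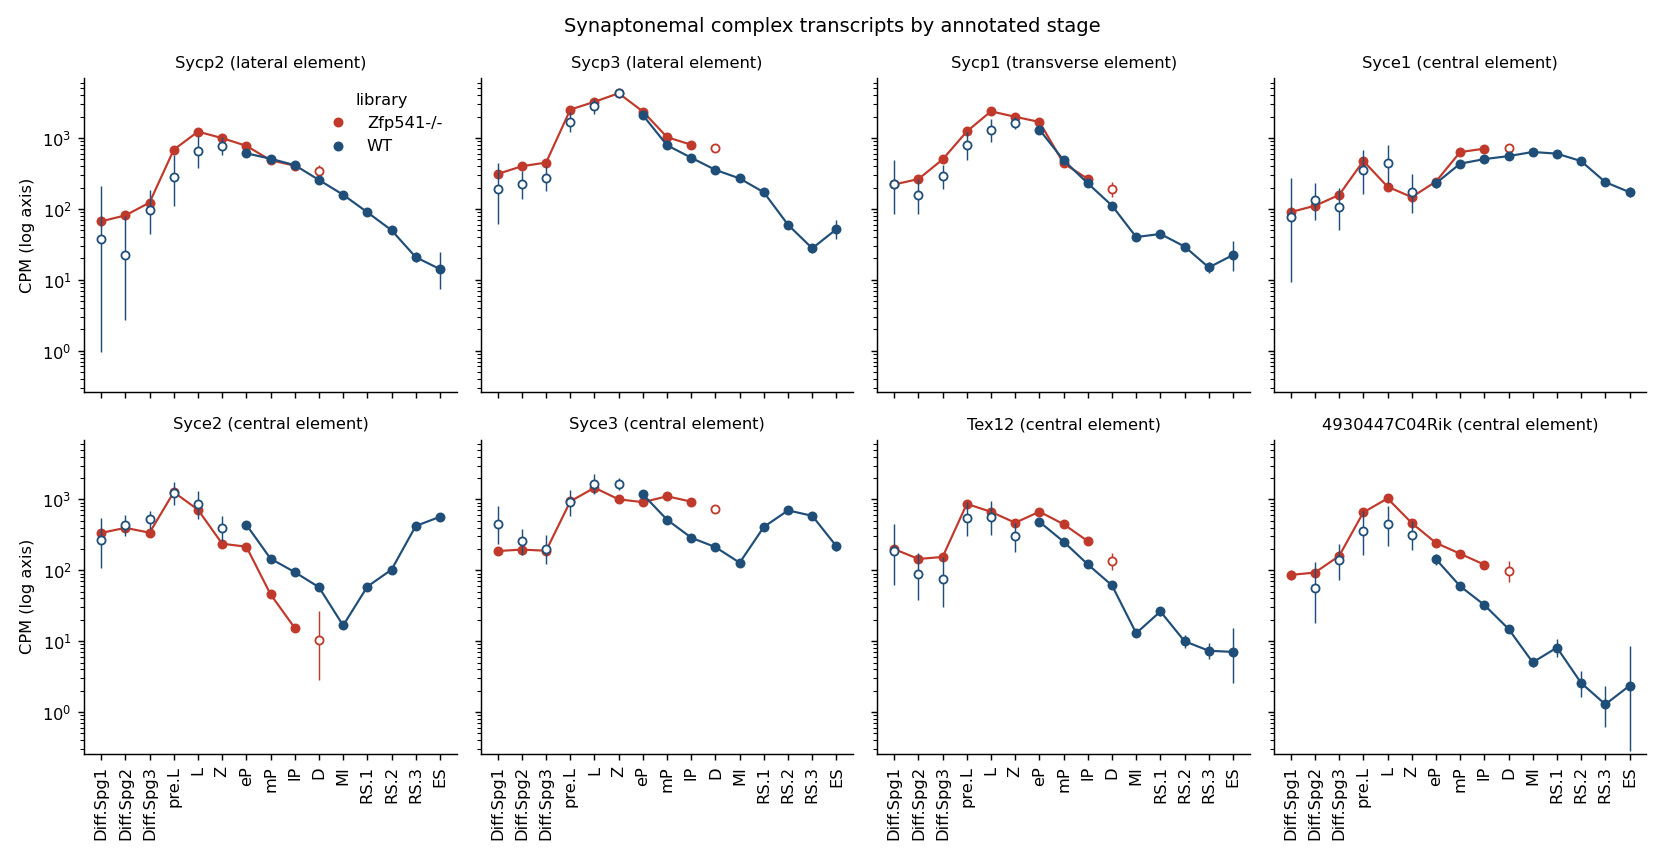
Levels (CPM, log axis) of the 8 genes by annotated stage in the library labelled Zfp541-/- and the WT library; filled points joined by lines are stages with at least 50 cells, open points stages with fewer, bars are exact Poisson intervals, and stages listed at 0 are not drawn. In WT, Syce2 and Syce3 are lowest at the first meiotic division (16.7 and 128 CPM) and higher again in spermatids, while the other genes except Syce1 stay low.

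Past pachytene only the WT library has stages with at least 50 cells, and there 3 of the central element genes kept or regained high levels. Sycp2, Sycp3, Sycp1, Tex12 and 4930447C04Rik were lower in each step from early pachytene to the first meiotic division, where Sycp1 was at 40.0 CPM, Tex12 at 12.9 CPM and 4930447C04Rik at 5.03 CPM. Syce1 was instead highest at that division, at 634 CPM, and stood at 601 CPM in the first round spermatids. Syce2 was at 16.7 CPM at the division, 58.9, 102 and 421 CPM in the 3 round spermatid stages and 567 CPM in elongated spermatids. Syce3 was at 128 CPM at the division and at 409, 699, 585 and 218 CPM in those 4 stages. Central element transcripts thus made up 95.2% of the summed UMIs of the 8 genes in the last round spermatids. The sort for tetraploid cells should remove spermatids, which are haploid, and the 3' counts do not tell whether these transcripts encode the meiotic protein.

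The 13 diplotene cells of the library labelled Zfp541-/- are too few for a ratio. They gave 4 Syce2 UMIs, 10.4 CPM (2.84 to 26.7), beside 57.7 CPM in 2234 WT diplotene cells, and 284 Syce3 UMIs, 741 CPM (657 to 832), beside 212 CPM. The low Syce2 and high Syce3 levels of late pachytene were thus found in these cells too.

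Across the 18 combinations of stage and library with at least 50 cells, 5 of the genes had like profiles of log2(CPM + 1): Sycp2, Sycp3, Sycp1, Tex12 and 4930447C04Rik correlated with each other at Pearson r from 0.81 to 0.97. Syce2 and Syce3 correlated with each other at 0.17 and Syce1 with Syce2 at -0.70. These profiles share libraries and depth, and r is a description. Among 13247 genes the profiles most like Sycp1 were Aaas, Zswim8 and Smad5 (0.98 each), and those most like Sycp3 were Zswim8, Naa15 and Dnajc3 (0.97 each). For Syce2 they were Ggact (0.90), Selenok (0.90) and Cyth3 (0.89), and for Syce3 Poln (0.91), Ap3s1 (0.87) and 4930558K02Rik (0.83).

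Genes that work with the complex were counted by role in late pachytene. Of 9 cohesin and axis genes, on which lateral elements are built, 4 reached 10 CPM, and 1 was at least 2-fold higher in the library labelled Zfp541-/-, Smc1b, a meiotic cohesin subunit (1377 CPM in the library labelled Zfp541-/- and 259 CPM in WT). Trip13, the ATPase that removes HORMA proteins from synapsed axes, was at 13.2 and 10.4 CPM, with a log2 ratio of 0.34 (0.01 to 0.70). Of 11 listed symbols for crossovers and the start of synapsis, 10 are in the matrices, the absent Shoc1 being another symbol of the listed AI481877. Of these 10 genes, 5 reached 10 CPM and 3 were at least 2-fold higher. They include Hfm1, a helicase (179 CPM in the library labelled Zfp541-/- and 44.5 CPM in WT, 2.01, 1.86 to 2.17), and Msh5, which stabilises recombination intermediates (34.9 and 9.90 CPM, 1.81, 1.49 to 2.16).

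Of 8 genes for taking the complex apart and for turnover of SYCP3, 5 reached 10 CPM in late pachytene and 2 were at least 2-fold lower. Ccna1, the germline cyclin A, was at 6.14 CPM in the library labelled Zfp541-/- and 24.6 CPM in WT (log2 interval -2.27 to -1.73), and its kinase partner Cdk1 at 12.5 and 46.7 CPM (-1.90, -2.09 to -1.71). Of 4 genes for proteins associated with the complex, all reached 10 CPM and 1 was at least 2-fold higher, Fkbp6, a co-chaperone found on it in the mouse (257 and 83.5 CPM, 1.62, 1.51 to 1.74), while Hsf2bp, a partner of meiotic recombination proteins, was at 116 and 74.1 CPM (0.65, 0.53 to 0.77). The background is that of late pachytene, 17.4% higher and 14.3% lower. The median log2 ratios of the 4 lists were 0.32, 1.56, -0.80 and 0.44, beside 0.11 over all genes.

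Markers of neighbouring stages also differed between the libraries in mid and late pachytene, and their part in the ratios above was not tested. The summed level of the 8 leptotene and zygotene markers was 1101 CPM in mid pachytene of the library labelled Zfp541-/- and 1859 CPM in WT, and 607 and 943 CPM in late pachytene. The 8 markers of diplotene and meiotic division, 5 of which are also in the disassembly list, were at 522 and 899 CPM in mid pachytene and at 449 and 843 CPM in late pachytene. The preleptotene markers were at 313 and 241 CPM and at 256 and 204 CPM. The 8 spermatogonial markers were at 35.0 and 21.1 CPM in mid pachytene and at 44.7 and 8.15 CPM in late pachytene, where 3 of them (Dmrt1, Sohlh1 and Stra8) were at 0 in WT. The round spermatid markers were at 55.3 and 84.4 CPM in mid pachytene and at 62.2 and 96.0 CPM in late pachytene. Elongating spermatid markers were at 0.102 CPM in mid pachytene of the library labelled Zfp541-/-, with 6 of 8 at 0, and at 285 CPM in WT, and at 0.085 and 223 CPM in late pachytene.

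In the early clusters, where Syce2 and Syce3 were lower and Tex12 higher in the library labelled Zfp541-/-, the marker lists differed as well. Cluster 12 had 241 CPM of spermatogonial markers in the library labelled Zfp541-/- and 70.4 CPM in WT, where 7 of 8 were at 0, and cluster 16 had 157 and 89.9 CPM. The WT sum of cluster 12 was 21 marker UMIs among 298408 UMIs, beside 4846124 UMIs in the library labelled Zfp541-/-. At that WT depth a marker of a few CPM can be at 0. Leptotene and zygotene markers summed to 4619 CPM in cluster 12 of the library labelled Zfp541-/- and 6102 CPM in WT, and for cluster 16 to 3263 and 4446 CPM. The first list was thus higher and the second lower in the library labelled Zfp541-/-. Pachytene markers summed to 2936 and 3197 CPM in cluster 12, and for cluster 16 to 4700 and 5792 CPM. Diplotene and division markers summed to 745 and 1025 CPM in cluster 12, and for cluster 16 to 649 and 1143 CPM. Elongating spermatid markers were nearly absent from the library labelled Zfp541-/-, with 7 of 8 at 0 in both clusters: cluster 12 had 0.83 CPM there and 382 CPM in WT, and cluster 16 had 0.54 and 1022 CPM.

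Each list of Sertoli, Leydig, myoid, endothelial, macrophage or red cell markers summed to under 5 CPM in mid and late pachytene of both libraries. The part that differences in stage between cells of one name, or free RNA, have in the ratios of the 8 genes was not tested beyond the values given above.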

How the data were processed

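The submitters' processing notes name Cell Ranger 3.1.0, Seurat 3.2.0 and mm10. The deposited matrices hold raw whole-number counts, 1 for each gene and barcode, and every barcode has at least 500 UMIs. Columns of the authors' table of cells, per the file headers, are stage, cluster, UMI count and percent of UMIs from mitochondrial genes, at most 10. The table lists 17253 of the deposited barcodes, in 25 clusters and 15 stages, and the sources used here do not say how doublets were treated.

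UMIs were summed per gene, stage or cluster and library, and scaled to CPM. Log2 ratios (Zfp541-/- over WT) were taken after adding 0.5 counts to each sum, with the exact conditional binomial 95% interval. Sums have exact Poisson intervals and shares of cells exact Clopper-Pearson intervals. UMIs are molecules, so all of these cover counting error only. With 1 library per genotype no test was made. The 8 genes, the gene lists, the markers and the motifs were chosen with earlier results of these data known. So was the contrast of Syce2 with Syce3. All 8 genes are named. In each role list the 2 genes with the largest absolute log2 ratio in late pachytene were named, and profiles were ranked by Pearson r for Sycp1, Sycp3, Syce2 and Syce3. The ratio and interval code was tested on simulated counts. Gene positions are from GENCODE for GRCm38. Alternatives were another scaling, thinning to 3000 UMIs, per-cell means, 3 cell filters, clusters at equal weight, another added count and no CPM minimum. Python 3.11.15, numpy 2.4.6, scipy 1.17.1 and pandas 2.3.3 were used.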

Additional observations from a re-analysis of the deposited data

Results flagged for a closer look

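Of the 8 genes, 3 had log2 ratios (Zfp541-/- over WT) on both sides of 0, with intervals of counting error that left out 0, in different pachytene groups. The share of all genes that meet this rule was not computed, so the count says nothing about the genes as a set. Whether the groups differ was not tested, since there is 1 library per genotype. For Syce3 the ratio was 1.10 in mid and 1.69 in late pachytene, and -0.46 in cluster 12 and -0.25 in cluster 16 of early pachytene. For Sycp1 it was 0.28 in cluster 12, 0.37 in cluster 16 and 0.21 in late pachytene, and -0.15 in mid pachytene. For Sycp2 it was 0.22 in cluster 12 and 0.33 in cluster 16, and -0.07 in mid pachytene. Scaled by the median of gene ratios, Sycp2 was at 0.09 in cluster 12 and 0.02 in cluster 16 and Sycp1 at 0.06 in cluster 16, with intervals that include 0. The median over all genes in cluster 16 was 0.28. Under that scaling Sycp2 would not meet the rule. Sycp3 would meet it, at -0.22 (-0.31 to -0.13) in cluster 16 and 0.23 (0.20 to 0.27) in mid pachytene.

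Barcodes that the authors' table does not annotate also held transcripts of the 8 genes. The library labelled Zfp541-/- had 2747 of them, their median being 1072 UMIs, and the WT library 4219, their median being 4400 UMIs. Of the 8 genes, 6 were at a higher level in those of the library labelled Zfp541-/-. The share of all genes that were higher there was not computed, so this count says nothing about the genes as a set. Sycp2 was at 328 CPM there and 163 CPM in WT, Sycp3 at 817 and 276 CPM, and Sycp1 at 421 and 77.7 CPM. Syce3 was at 724 CPM there and 319 CPM in WT, Tex12 at 287 and 47.2 CPM, and 4930447C04Rik at 158 and 13.0 CPM. Syce1 was the lower one there, at 439 CPM (426 to 452) against 470 CPM (462 to 479) in WT. Syce2 was at 162 CPM in the library labelled Zfp541-/- and 165 CPM in WT, within counting error. These barcodes carry no stage, and the stages they come from were not determined.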

How the results depend on the processing

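The log2 ratios of the 8 genes in mid and late pachytene and in clusters 12 and 16 made 32 results. Of their 272 alternative values none reversed a ratio whose interval left out 0, and 36 moved by more than counting error, 22 of them under scaling by the median of gene ratios. Under that scaling 1 gene, 4930447C04Rik, was at least 2-fold higher in mid pachytene in place of 2. With the clusters of mid pachytene at equal weight, the difference between the log2 ratios of Syce3 and Syce2 was 2.65 in place of 2.77. The causes were not tested. Over the alternatives Syce2 in late pachytene lay between -2.72 and -2.53 and Syce3 between 1.58 and 1.73. The ratios of Sycp3 in both early clusters, and of Syce1 there, took both signs. The alternative without cells whose barcode is in both libraries was chosen after seeing the data. Thinning left 33 WT cells in cluster 12 and 109 in cluster 16. No paired analysis was possible because each genotype has 1 library. Counts limit the WT stages before pachytene, at 8 to 39 cells each. Animals, library preparation and genotype cannot be told apart.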
